A study of Oryza sativa Japonica Group with 38 samples.

Results

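Rice seedlings dried in air were compared with untreated seedlings in 4 kinds of RNA, over long noncoding RNAs (lncRNAs) listed by the submitters. The comparison uses 10 of the 38 libraries of the series, and all 7231 listed loci were examined. Of these loci, 4065 reached 1 FPKM (fragments per kilobase of exon and per 1e6 reads) in at least 1 of the 8 columns of the comparison. The other 3166 stayed under 1 FPKM in every column, and 349 of them were listed at 0 throughout. All plants were Oryza sativa japonica (written japanica in the ecotype label), 2 weeks old, raised on MS medium under a cycle of 12 h light (28 °C) and 12 h darkness (22 °C). The untreated group had 1 library each of poly(A)+, poly(A)-, nuclear and small RNA. The drought group had 2 libraries of poly(A)+ RNA and 2 of poly(A)- RNA, and 1 each of nuclear and small RNA. Poly(A)+, poly(A)- and small RNA came from whole cells, and nuclear RNA was the total RNA of nuclei. The drying is given in the labels without a duration. Ribosomal RNA had been depleted with the RiboMinus kit, tailed and untailed RNA were split on oligo(dT) beads, and a dUTP protocol kept strand.

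Each group has 1 column of values in every kind of RNA. The 2 drought libraries of poly(A)+ RNA share a column, as do those of poly(A)- RNA, so no replicate spread exists and no test between plants could be made. Differences are therefore given as sizes, with 95% intervals that cover counting error only. The lists hold noncoding loci and no protein-coding genes, so neither the seedling tissue nor a drought response of known genes could be checked against markers. In RNA from whole seedlings, fewer cells of a type and less RNA per cell cannot be told apart.

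Long noncoding RNAs are transcripts without an evident protein product. Most are made by RNA polymerase II and carry a poly(A) tail, while others lack the tail or stay in the nucleus. In Arabidopsis, lncRNAs are known to act at the chromatin of a flowering gene (COOLAIR), to sequester a microRNA under phosphate starvation (IPS1) and to serve as precursors of small RNAs. A locus in the lists carries a RAP identifier (beginning with OS), an EPlOSAG identifier, or an XLOC identifier given to an assembled locus. There are 1873, 1849 and 3509 of them, and the files give no function for them.

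Recovered depths were 74.5 M reads (M, units of 1e6) for untreated and 58.9 M for drought poly(A)+ RNA, and 80.8 M and 60.5 M for poly(A)- RNA. Nuclear RNA had 24.6 M and 49.7 M, and small RNA 39.7 M and 85.8 M. From 1.30% to 2.76% of the reads of these libraries lay in listed loci.

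Of the 4 kinds of RNA, poly(A)+ RNA had the most measurable lncRNAs, and most of these were lower in drought. Among 3030 loci at 1 FPKM or more in one of the columns, 1602 passed that level in both, 1271 in untreated seedlings alone and 157 in drought alone. The 1271 had to have the lower value in drought and the 157 the higher one, so the filter sets part of the median and shares that follow. The median difference of log2(FPKM + 1), drought minus untreated, was -1.02, and 80.3% of the loci (2434) had the lower value in drought. Past 2-fold on this scale, 216 loci (7.13%) were higher and 1556 (51.4%) were lower. After subtraction of the median, 609 (20.1%) were higher and 421 (13.9%) were lower, so the share of higher loci among those past 2-fold went from 12.2% to 59.1%. All 216 higher loci of the deposited scale and all 421 lower loci of the centred scale passed 2-fold on both scales, as a negative median requires. The ratio intervals of these loci left out 1 in every case.

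The listed loci together took 2.54% of the untreated and 2.43% of the drought poly(A)+ reads, while the median locus was lower. The drought reads were gathered in fewer loci, since the 10 loci with the most reads took 11.6% of the listed reads in untreated seedlings and 38.1% in drought. A single locus, XLOC_067313, accounted for 0.340% of the whole drought library, and without it the listed share was 2.09%. The median number of reads at a measured locus was 194 in untreated seedlings and 51.5 in drought, against library sizes of 74.5 M and 58.9 M. The part of depth and library content in the lower values was not tested. Within 0.1 of the 2-fold line on the log2 scale stood 142 loci past it on the lower side and 136 short of it, and 20 and 26 on the higher side.

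**Figure D1:**
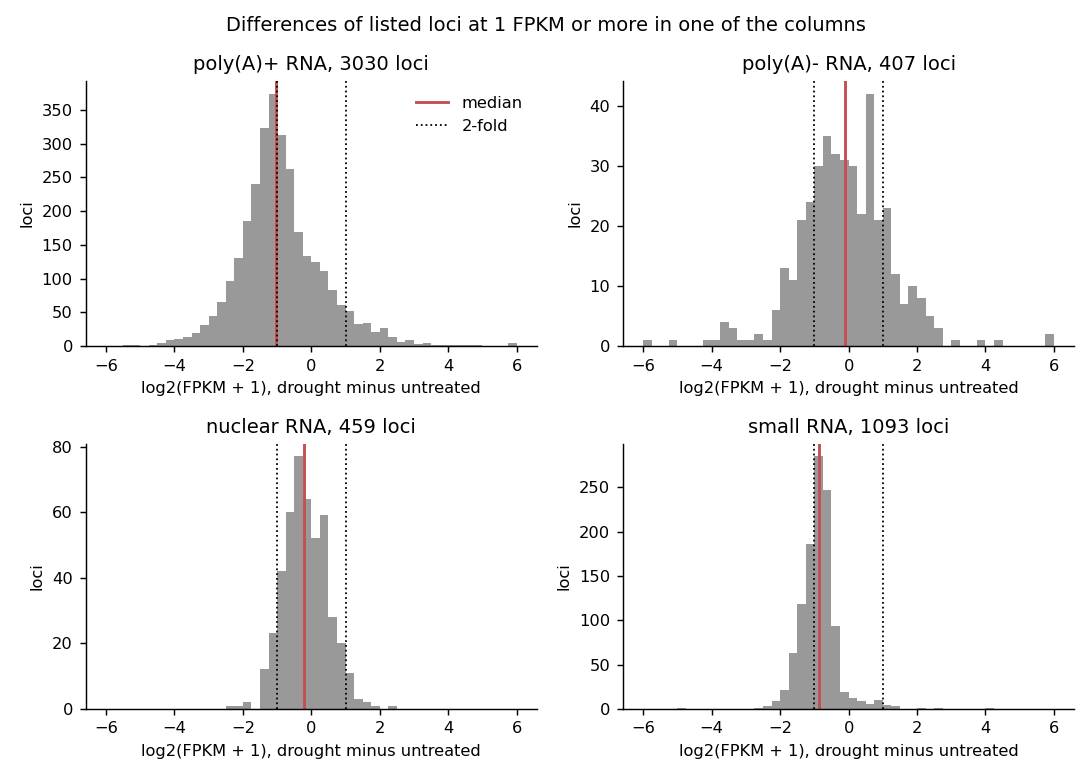
Histograms of the difference of log2(FPKM + 1), drought minus untreated, for loci at 1 FPKM or more in one of the 2 columns, in 4 kinds of RNA (the y axis counts loci, values beyond 6 are drawn at 6). The red line is the median and dotted lines mark 2-fold. The poly(A)+ and small RNA medians stand at -1.02 and -0.87, and the poly(A)- and nuclear medians at -0.11 and -0.22.

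The 10 largest differences among loci higher in drought poly(A)+ RNA were at loci of 7.57 FPKM or less in untreated seedlings. XLOC_067313 (IRGSP-1.0 chromosome 5, 26927841 to 26928242, minus strand, 1 exon) had 7.57 FPKM (95% interval 6.61 to 8.62) in untreated seedlings and 8474 (8437 to 8511) in drought. In the remaining conditions its poly(A)+ value was 49.1 FPKM in high salt, 23.1 in high light, 18.2 in heat, 7.96 in cold and 0.474 in roots, so the drought column stood above all of them. It was the locus with the most FPKM in drought poly(A)+ RNA. XLOC_094175 (chromosome 9, 862941 to 863330, minus strand) had 2.62 FPKM (2.07 to 3.28) untreated and 472 (463 to 481) in drought, a ratio of 180 (144 to 228). XLOC_048000 (chromosome 3, 10849619 to 10849977, minus strand) had 3.45 (2.78 to 4.23) and 478 (469 to 488), a ratio of 139 (113 to 172). Neither exceeded 17.9 FPKM in cold, heat, high light, high salt or roots.

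Other loci had no read, or 1, in the untreated column. OS08G0110650 (chromosome 8, 557917 to 558182, plus strand) was listed at 0 in untreated seedlings and at 81.2 FPKM (76.8 to 85.8) in drought, at least 534-fold higher against a limit of 3 reads in that library. XLOC_039704 (chromosome 2, 26144907 to 26145346, minus strand) was likewise at 0 and at 19.1 (17.4 to 20.8). This is 208-fold above that limit, with a ratio interval that begins at 168. XLOC_013194 (chromosome 10, 11758086 to 11759783, plus strand, 4 exons, 1476 nt) had 1 read untreated, or 0.0091 FPKM, and 24.8 FPKM (23.7 to 25.8) in drought. The ratio of 2722 has a counting interval of 488 to 107554. In poly(A)+ RNA of heat, high light, high salt and roots XLOC_013194 was listed at 0, and in cold at 0.00661 FPKM.

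The rest of the 10 poly(A)+ loci with the largest higher values were XLOC_037559, XLOC_057493, XLOC_054027 and XLOC_046181. XLOC_057493 (chromosome 4, 17705741 to 17706049, minus strand), placed by the authors in their poly(A)- and nucleus classes, had 4.84 FPKM (3.98 to 5.83) untreated and 164 (158 to 170) in drought. The other 3 had between 0.522 and 1.86 FPKM untreated and between 26.6 and 49.9 in drought. All 10 had their highest value of 7 conditions in drought, 9 of them had 1 exon, and none overlapped a listed locus on the opposite strand. They were chosen for the drought difference, so this order is a description.

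Loci of high abundance also stood among the higher ones. XLOC_048089 and XLOC_043227 lie on opposite strands of the same 763 nt of chromosome 3 (11539610 to 11540373). The first had 176 FPKM (173 to 180) in untreated and 1214 (1204 to 1224) in drought poly(A)+ RNA. OS11G0171350 (chromosome 11, 3490174 to 3490738, plus strand) had 82.3 (79.0 to 85.6) and 1024 (1011 to 1037), a ratio of 12.5 (11.9 to 13). XLOC_084854 (chromosome 8, 5807632 to 5808378, plus strand) had 364 (359 to 369) and 1277 (1267 to 1288), a ratio of 3.51. Its neighbour XLOC_084853 had 683 and 1249, a ratio of 1.83 that is short of 2-fold as deposited. XLOC_067313, XLOC_084854, XLOC_084853, XLOC_048089 and OS11G0171350 were the 5 loci of most FPKM in drought poly(A)+ RNA.

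**Figure D2:**
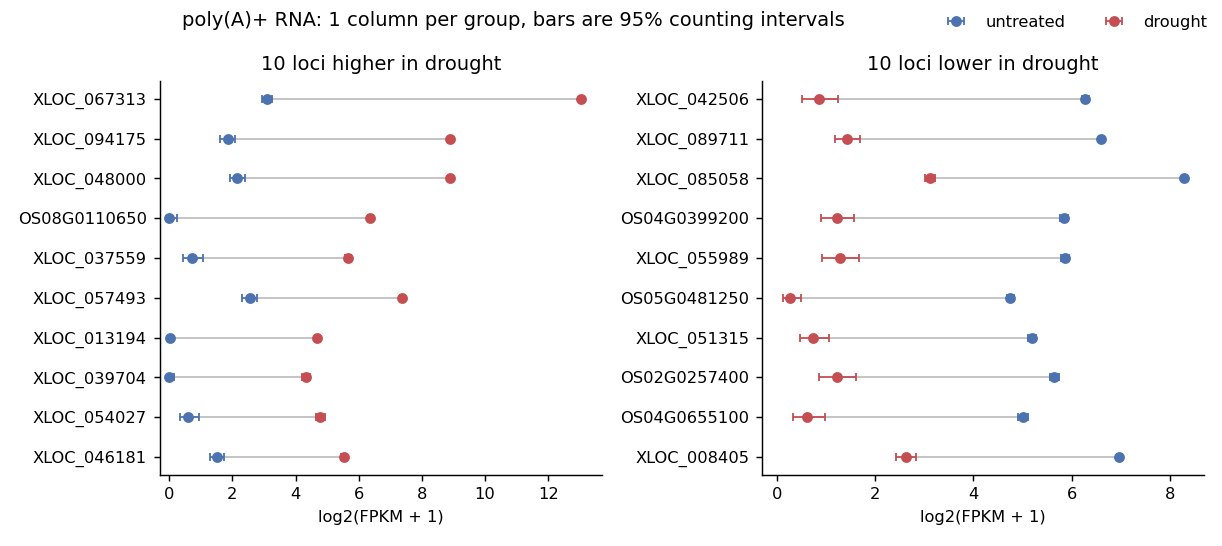
Poly(A)+ RNA of the 10 loci higher and the 10 lower in drought with the largest differences past 2-fold on both scales, as log2(FPKM + 1); blue is untreated, red is drought, and bars are 95% counting intervals. In none of the 20 loci do the intervals of the 2 columns meet, and XLOC_067313 reaches 8474 FPKM.

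The 10 lower poly(A)+ loci with the largest differences had 26 to 309 FPKM in untreated seedlings and 0.213 to 7.65 in drought. XLOC_085058 (chromosome 8, 7994403 to 7995773, plus strand) had 309 FPKM (306 to 313) untreated and 7.65 (7.06 to 8.28) in drought, 40.5-fold lower (37.4 to 43.9). XLOC_089711 (chromosome 8, 20427340 to 20427862, minus strand) had 96.0 (93.0 to 99.1) and 1.69 (1.26 to 2.22), 56.8-fold lower (43.2 to 76.1). XLOC_042506 (chromosome 3, 6625798 to 6626070, plus strand) had 76.7 (72.9 to 80.6) and 0.812 (0.432 to 1.39), 94.5-fold lower (55.1 to 178). OS05G0481250 (chromosome 5, 23660499 to 23661591, minus strand, 4 exons) had 26 (24.6 to 27.4) and 0.213 (0.0973 to 0.404), 122-fold lower (64.1 to 268). Its values in cold, heat, high light and roots were between 28.9 and 38.2 FPKM, near the untreated one, and in high salt it had 3.60.

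The list of 10 was completed by XLOC_008405, XLOC_055989, XLOC_051315, OS04G0399200, OS02G0257400 and OS04G0655100, with 31.4 to 125 FPKM in untreated seedlings and 0.532 to 5.18 in drought. In 9 of the 10 loci drought gave the lowest value of the 6 seedling conditions. The exception was XLOC_055989, at 1.44 FPKM in drought and 0.805 in heat. With roots included, drought was the lowest of 7 conditions in 5 of the 10.

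In poly(A)+ RNA, 51.4% of all measured loci were lower and 7.13% higher, and most groups by list, exon number and length stood near these shares. Of 982 RAP loci, 538 (54.8%) were lower and 47 (4.79%) higher. Of 2023 XLOC loci, 1009 (49.9%) were lower and 166 (8.21%) higher. Loci of 1 exon and of 2 or more exons had 50.8% and 53.0% lower. Loci under 300 nt, of 300 to 600 nt and over 600 nt had 57.7%, 53.2% and 47.9% lower, against 51.4% of all loci. The 25 EPlOSAG loci stood apart, with 9 (36%) lower, 3 (12%) higher and a median difference of 0.09. Of the 7 loci as long as a repeated set on chromosome 9, described with small RNA, 1 was lower and the median was 0.14. The 25 hold 6 of these 7, which are not independent of each other, so the counts are not separate.

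Loci that the authors placed in their poly(A)- class had another balance, part of which the level filter sets. Of 22 such loci at 1 FPKM in poly(A)+ RNA, 12 were higher in drought, 1 was lower, and the median difference was 1.20. After centring, 20 of the 22 were higher. The filter of 1 FPKM was passed through the drought column alone by 12 of the 22, of which 6 were higher, and these had to have the higher value in drought. Of the 10 at 1 FPKM in untreated seedlings, 6 were higher and 1 was lower. XLOC_096146 had 1.47 FPKM in untreated and 16.7 in drought poly(A)+ RNA, XLOC_066469 had 4.50 and 24.1, and XLOC_060509 had 3.15 and 17.8. In the nucleus class 31 of 121 loci were higher (25.6%) and 43 lower (35.5%), against 7.13% and 51.4% of all measured loci. The column through which they passed the filter was not counted for this class. Most of the 12 higher loci of the poly(A)- class are in the nucleus class too, so the 2 counts are not separate. How the authors set these classes is not stated here, and the same libraries may enter them, so the counts are a description. The 3 loci were chosen after their values were seen. In poly(A)- RNA XLOC_096146 had 19 and 76.1 FPKM and XLOC_060509 had 26.4 and 60.0, whereas XLOC_066469 had 172 and 155.

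Poly(A)- RNA, the part not held by oligo(dT) beads, had fewer detectable loci and no common direction. At 1 FPKM or more in one of the columns stood 407 loci, 147 in both, 148 in untreated seedlings alone and 112 in drought alone. The median difference was -0.11, and 53.8% of loci had the lower value in drought. As deposited, 73 loci (17.9%) were higher past 2-fold and 91 (22.4%) lower. Centred on the median, the counts were 86 (21.1%) and 85 (20.9%). Lower loci had unequal shares in parts of the list. They made up 49 of 131 RAP loci (37.4%) and 40 of 260 XLOC loci (15.4%), and 47 of 109 loci of the authors' bimorphic poly(A) class (43.1%) against 30 of 249 of their poly(A)+ class (12.0%). The 148 loci that passed the level in untreated seedlings alone had to have the lower value in drought, and the 112 in drought alone the higher one. The column through which each group passed was not counted, and the same libraries may enter the authors' classes. These shares were not tested against each other and are a description.

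Several of the loci higher in drought poly(A)+ RNA were higher in drought poly(A)- RNA as well. XLOC_057493 apart, those named here had far less FPKM in drought poly(A)- than in drought poly(A)+ RNA. How completely the beads had split tailed from untailed RNA was not tested. XLOC_067313 had 0.0617 FPKM untreated, which is 2 reads, and 207 FPKM (202 to 213) in drought, a ratio of 3357 with an interval of 929 to 27728. XLOC_057493 had 6.35 (5.40 to 7.42) and 998 (983 to 1012), a ratio of 157 (134 to 185). In no remaining condition did XLOC_057493 exceed 26.3 FPKM, its value in roots. OS11G0171350 had 1.73 (1.30 to 2.25) and 58.7 (55.7 to 61.9), a ratio of 34 (25.9 to 45.5). XLOC_048000 and XLOC_094175 were listed at 0 untreated and had 13 and 8.45 FPKM in drought. These are 125-fold and 88.6-fold above a limit of 3 untreated reads, and the ratio intervals begin at 101 and 71.4.

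OS12G0559250, XLOC_027369, XLOC_084854, XLOC_026385 and XLOC_029504 completed the 10 higher poly(A)- loci, with ratios between 5.57 and 8.90. XLOC_026385 was the most abundant of them, at 28.1 FPKM untreated and 156 in drought, but roots had 259. It overlaps XLOC_029496 on the opposite strand. The pair XLOC_048089 and XLOC_043227 had the most FPKM in poly(A)- RNA, with 3259 and 2348 untreated and 7534 and 5087 in drought. Their ratios were 2.31 and 2.17, and XLOC_048089 took 16.1% of the listed poly(A)- reads in untreated seedlings and 26.8% in drought. The 2 loci have the same coordinates and unequal values in all 4 kinds of RNA, as far apart as 635 and 0.661 FPKM in untreated small RNA, so the deposited values keep the strands separate there. How completely the libraries did so was not tested.

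XLOC_010040 (chromosome 1, 33032567 to 33033134, minus strand) had the largest lower difference of log2(FPKM + 1) in poly(A)- RNA. In untreated seedlings it had 142 FPKM (138 to 145) and in drought 1.31 (0.957 to 1.76), 108-fold lower (80.6 to 148). In nuclear RNA the same locus had 46.5 FPKM (43 to 50.2) and 50.4 (47.8 to 53.0), intervals that meet. No poly(A)+ read was found untreated, and drought had 0.0599 FPKM. Its poly(A)- values in the remaining seedling conditions were 289 FPKM in cold, 109 in high salt, 59.0 in heat and 27.2 in high light.

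Of the other loci among the 10 largest lower poly(A)- differences, 7 carry RAP identifiers. RAP loci were 131 of the 407 measured poly(A)- loci and 49 of the 91 lower ones. OS12G0115050 (chromosome 12, 733810 to 734096, plus strand) was 172-fold lower (67.1 to 634), a larger ratio than that of XLOC_010040. With a pseudocount of 0.1 the log2 differences of OS04G0399200, OS12G0115050 and XLOC_010040 were -6.98, -6.92 and -6.65, so the order depends on the pseudocount. OS03G0781501 had 24.1 FPKM (22.4 to 25.8) untreated and 0.414 (0.199 to 0.762) in drought, 58.1-fold lower (31.4 to 122). OS04G0399200 had 12.5 (11.2 to 14.0) and no read in drought. It was 80.4-fold lower with a limit of 3 drought reads, and the interval of this ratio begins at 65.0. OS07G0184300, OS02G0257400, OS07G0139600 and OS08G0233000 had 11.8 to 13.9 FPKM untreated and 0.0903 to 0.290 in drought. XLOC_078921 and XLOC_001043, both with a listed locus on the opposite strand, had 10.5 and 29.4 untreated and 0 and 2.08 in drought. All 10 loci had their lowest value of the 6 seedling conditions in drought. With roots included, drought was the lowest of 7 conditions in 6 of the 10.

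In nuclear RNA, 459 loci reached 1 FPKM in one of the columns, 218 of them in both, and the median difference was -0.22. As deposited, 18 loci (3.92%) were higher past 2-fold and 39 (8.5%) were lower. Centred on the median, 36 (7.84%) stood higher and 19 (4.14%) lower, so the higher share of the calls went from 31.6% to 65.5%. On the deposited scale the higher loci included 7 of the 63 under 300 nt (11.1%) and 5 of the 228 over 600 nt (2.19%). The lower loci included 9 (14.3%) and 8 (3.51%) of them, so short loci were called more often in both directions. XLOC_001897 (chromosome 1, 13903192 to 13904181, plus strand) had 1.56 FPKM (1.11 to 2.14) untreated and 11.7 (10.7 to 12.7) in drought, a ratio of 7.48 (5.38 to 10.7). Its difference of log2(FPKM + 1) was the largest on the higher side, 2.31, but with a pseudocount of 0.1 it was 2.83 against 4.71 for XLOC_067313, described with the 3 long kinds of RNA. XLOC_073305 had 10.3 (9.12 to 11.6) and 34.6 (33 to 36.2), a ratio of 3.36 (2.95 to 3.83). OS08G0191150 had 1.05 (0.599 to 1.70) and 4.51 (3.79 to 5.32). EPlOSAG00000018429 had 1 read untreated and 2.85 FPKM in drought, a ratio of 14.4 with an interval of 2.38 to 586, and 4.52 FPKM in heat.

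On the lower side the largest nuclear difference of log2(FPKM + 1) was that of XLOC_051819 (chromosome 4, 145577 to 145818, plus strand), with 131 FPKM (122 to 141) untreated and 26.7 (23.9 to 29.8) in drought. It was 4.91-fold lower (4.31 to 5.61), and cold had a still lower 11.6 FPKM. By ratio, OS07G0139600 and OS03G0781501 were lower by more, 12.1-fold (3.54 to 64.2) and 11.4-fold (5.58 to 26.4), from 2.00 and 5.20 FPKM untreated. XLOC_006164 (chromosome 1, 3251163 to 3252933, minus strand, 1770 nt) had 3.15 (2.64 to 3.72) and 0.478 (0.344 to 0.646). The untreated nuclear library had the lowest recovered depth of the 8, 24.6 M reads. Of its whole values up to 200 reads, 56.7% were odd numbers of reads, whereas at a depth of 2 times that size all would be even. Its counting intervals are the widest for a given FPKM and length. XLOC_048089 and XLOC_043227, highest in nuclear FPKM too, had 2650 and 2078 untreated and 2160 and 1639 in drought, so the order of the columns was the reverse of that in poly(A)+ and poly(A)- RNA.

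Calls in poly(A)+ and poly(A)- RNA were set side by side for the 350 loci that reached 1 FPKM in both kinds of RNA. Of these, 54 were higher in both, which is 63.5% of the 85 higher poly(A)+ loci and 76.1% of the 71 higher poly(A)- loci. Lower in both were 61, or 49.2% of 124 and 85.9% of 71. A single locus, XLOC_029543, was called in opposite directions. Centred on the medians, 77 were higher in both and 46 lower in both, and 5 were higher in poly(A)+ and lower in poly(A)- RNA. Between poly(A)+ and nuclear RNA, 378 loci could be compared, of which 5 were higher in both and 23 lower in both. The 5 were 10.4% of 48 higher poly(A)+ loci and 45.5% of 11 higher nuclear loci. The 23 were 12.2% of 188 lower poly(A)+ loci and 82.1% of 28 lower nuclear loci. Called in opposite directions were 2 loci higher and 3 lower in poly(A)+ RNA, and as many after centring. After centring, 15 were higher in both and 10 lower in both, so which direction holds more loci turned with the scale. The libraries are separate, but the labels do not say whether the RNA came from the same plants. The completeness of the oligo(dT) split was not tested.

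Poly(A)+, poly(A)- and nuclear RNA all went past 2-fold the same way at 15 of the 185 loci measurable in each. Higher were XLOC_067313, XLOC_077010 and XLOC_073305. XLOC_067313 had no nuclear read untreated and 2.51 FPKM (1.86 to 3.31) in drought. This is 8.25-fold above a limit of 3 untreated reads, with a ratio interval that begins at 6.47. XLOC_073305 (chromosome 6, 9349537 to 9350602, minus strand) had 1.87 FPKM (1.58 to 2.19) untreated and 8.51 (7.81 to 9.27) in drought poly(A)+ RNA. Its poly(A)- values were 4.77 (4.32 to 5.25) and 18.4 (17.4 to 19.5), with 50.7 in roots. It overlaps XLOC_069510 on the opposite strand. XLOC_077010 had 1.28 FPKM (0.858 to 1.84) untreated and 5.09 (4.46 to 5.79) in drought nuclear RNA.

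Of the 12 lower loci, 9 carry RAP identifiers, and 8 were lower after centring too. OS03G0781501 (chromosome 3, 32398403 to 32399832, minus strand, 2 exons) had 57.6 FPKM (54.9 to 60.4) untreated and 4.00 (3.23 to 4.90) in drought poly(A)+ RNA. Its nuclear values were 5.20 FPKM (3.87 to 6.83) and 0.454 (0.208 to 0.862). OS07G0139600 had 68.6 (65.5 to 71.8) and 4.41 (3.57 to 5.39) in poly(A)+ RNA. XLOC_074014 (chromosome 6, 16019123 to 16019716, minus strand) had 23.2 (21.8 to 24.7) and 1.06 (0.746 to 1.46) there, and 7.41 (6.08 to 8.94) and 1.19 (0.828 to 1.65) in nuclei.

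OS03G0285850 and OS02G0580366 differed less, by 7.77-fold and 4.51-fold in poly(A)+ RNA and by 3.10-fold and 3.28-fold in nuclear RNA. OS02G0572500, OS05G0548950, XLOC_050238 and XLOC_078967 were past 2-fold as deposited but not after centring in at least one kind of RNA. Of these, OS05G0548950 has 9 exons and had 50.6 FPKM (49.2 to 52.0) and 2.71 (2.36 to 3.09) in poly(A)+ RNA, 18.7-fold lower (16.3 to 21.5). Drought was not always the lowest condition: XLOC_078967 had 2.69 FPKM in drought poly(A)+ RNA and 0.522 in high salt.

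**Figure D3:**
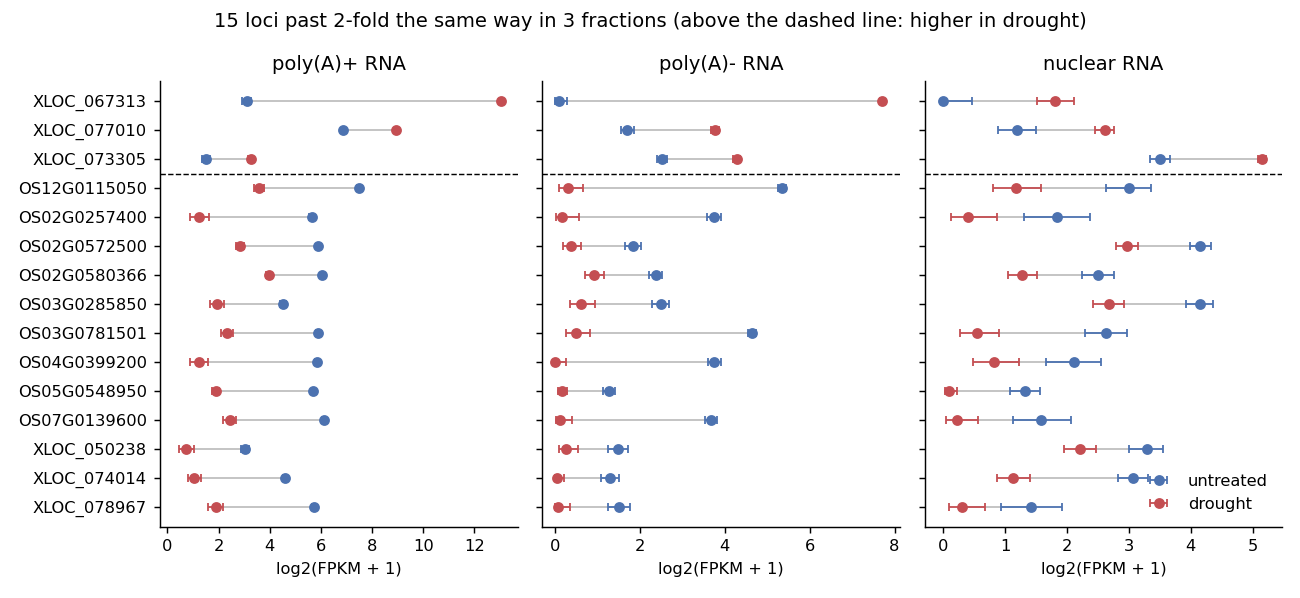
Values of the 15 loci past 2-fold the same way in the 3 long kinds of RNA, as log2(FPKM + 1), with untreated in blue, drought in red and 95% counting intervals as bars. The 3 loci above the dashed line are higher in drought in each panel and the 12 loci under it are lower.

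Loci whose poly(A)+ and poly(A)- differences came apart were counted next. With each difference centred on its median, 59 of 3087 loci (1.91%) had a gap of at least 4-fold towards poly(A)- RNA. Such a gap need not be a rise in poly(A)- RNA, where only 407 loci reached 1 FPKM. Where both poly(A)- values are near 0, the gap is mostly the poly(A)+ difference, so its direction in poly(A)+ RNA is largely set beforehand. All 59 were lower in poly(A)+ RNA on both scales. A gap towards poly(A)+ RNA was found at 156 loci (5.05%), of which 122 were higher in poly(A)+ RNA. As deposited the counts were 329 towards poly(A)- and 41 towards poly(A)+ RNA, so which direction holds more loci depends on the scale. OS08G0110650 had 81.2 FPKM in drought poly(A)+ RNA and 2.49 in drought poly(A)- RNA. XLOC_013194 and XLOC_037559 had 0.582 and 1.45 FPKM in drought poly(A)- RNA and no read untreated. The largest centred gap, -6.95 on the log2 scale, was that of XLOC_010040, where the poly(A)- value was lower and no poly(A)+ signal was found in untreated seedlings.

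The 5 loci with the largest gaps towards poly(A)- RNA had 0.545 FPKM or less of it in either column. XLOC_089711 had 0.545 FPKM (0.346 to 0.818) untreated and 0.0633 (0.00767 to 0.229) in drought poly(A)- RNA, with a centred gap of 3.72. XLOC_058933 (chromosome 4, 27838705 to 27838951, minus strand) had 44.9 FPKM (41.9 to 48.1) untreated and 1.79 (1.17 to 2.63) in drought poly(A)+ RNA, and 0.151 and 0.202 in poly(A)- RNA. XLOC_017321 had 41.1 (38.7 to 43.7) and 1.52 (1.03 to 2.16) on the poly(A)+ side, against 0.143 and 0 on the other. OS05G0481250 and XLOC_051315 were the remaining loci of the 5 with the largest gaps in this direction, at 3.20 and 2.96.

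**Figure D4:**
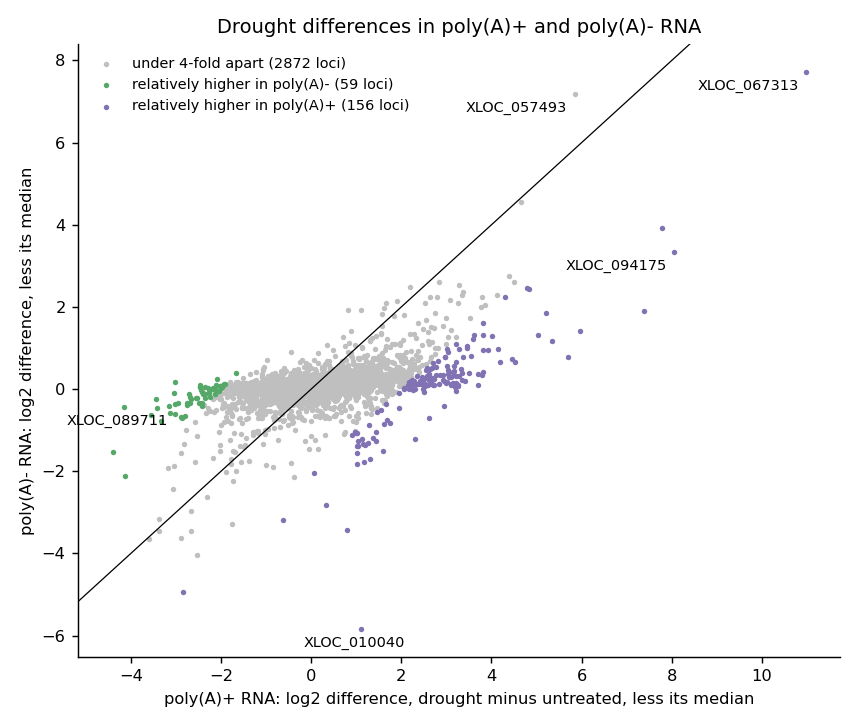
Each point is a locus at 1 FPKM or more in one of 4 columns. The x axis is its poly(A)+ and the y axis its poly(A)- difference of log2(FPKM + 1), drought minus untreated, less the median of that kind of RNA, and the line marks equal differences. Of 3087 loci, 59 (green) stand at least 4-fold above the line and 156 (purple) at least 4-fold under it.

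Neighbouring loci called the same way formed pairs and no longer runs. Within 5 kb on the same strand there were 6 pairs higher and 17 lower in poly(A)+ RNA, 3 higher in poly(A)- RNA and 2 higher in nuclear RNA. In poly(A)+ RNA these held 12 of the 216 higher and 34 of the 421 lower loci called on both scales. They held 6 of 73 higher poly(A)- loci and 4 of 18 higher nuclear loci. How many of all listed loci have such a neighbour was not counted, so the pairs are a description. The loci of the higher poly(A)+ pair XLOC_020784 and XLOC_020785 overlap. OS12G0559250 and XLOC_027369, 1037 nt apart on chromosome 12, had 45.9 and 19.8 FPKM untreated and 480 and 232 in drought poly(A)+ RNA. OS11G0171350 and XLOC_018258, 629 nt apart, were paired in poly(A)+ and poly(A)- RNA, and XLOC_084853 and XLOC_084854, 587 nt apart, in poly(A)- RNA. The nuclear pairs were XLOC_073899 with XLOC_073900 and XLOC_073905 with XLOC_073907 on chromosome 6, each listed at 0 untreated and at 1.03 to 1.38 FPKM in drought. Among lower pairs, XLOC_047076 and XLOC_047077 on chromosome 3 lie 133 nt apart and had 13.7 and 18 FPKM untreated and 0.105 and 0.147 in drought. These pairs were named after their values were seen. Whether 2 loci of a pair belong to a single transcript was not tested.

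Small RNA libraries, whose reads come from short RNAs that map inside a listed locus, were lower in drought at nearly all measured loci. Of 1093 loci at 1 FPKM in one of the columns, 403 reached it in both, 685 in untreated seedlings alone and 5 in drought alone. The 685 had to have the lower value in drought, so the filter sets part of the median and shares that follow. The median difference was -0.87, the middle 50% of loci lay between -1.16 and -0.64, and 95.8% (1047 loci) had the lower value in drought. Past 2-fold, 10 loci (0.915%) stood higher and 402 (36.8%) lower. Centring gave 42 higher (3.84%) and 25 lower (2.29%), and the higher share of the calls went from 2.43% to 62.7%. The drought library was the deeper, and the median locus had 29 reads untreated and 20 in drought at 39.7 M and 85.8 M reads. The part of depth and library content in this was not tested.

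EPlOSAG loci made up 772 of the 1093, and 298 of them (38.6%) were lower. In the low poly(A) class of the authors, 186 of 512 loci (36.3%) were lower and none was higher. Both lower shares stood near those of all measured loci, of which 36.8% were lower and 0.915% higher. Among the 10 largest lower differences were 5 EPlOSAG loci of 211 to 231 nt, EPlOSAG00000040087, EPlOSAG00000041788, EPlOSAG00000040375, EPlOSAG00000046669 and EPlOSAG00000041721, with 11.3 to 14.5 FPKM untreated and 1.96 to 2.75 in drought. EPlOSAG00000046669 overlaps EPlOSAG00000046681 on the opposite strand. The largest was that of EPlOSAG00000001961 (chromosome 1, 42923735 to 42923973, minus strand), with 28.8 FPKM (25.5 to 32.4) untreated and 1 read, or 0.0490 FPKM, in drought. The ratio of 588 has a counting interval of 105 to 23312. The remaining conditions had 0.0860 to 4.43 FPKM, so the untreated value stood apart from every other column. It overlaps EPlOSAG00000001959 on the opposite strand.

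XLOC_036368 (chromosome 2, 35935957 to 35936250, plus strand) had 30.9 FPKM (27.8 to 34.3) untreated and 3.94 (3.20 to 4.80) in drought small RNA, 7.84-fold lower. XLOC_079937 had 25.8 (23.9 to 27.7) and 4.30 (3.79 to 4.86), and OS09G0345350 had 19.8 (17.9 to 21.9) and 3.24 (2.72 to 3.83). XLOC_039420 was the most abundant of the lower loci, at 80.0 FPKM (77.2 to 82.9) and 16 (15.1 to 16.9), and has XLOC_034725 on the opposite strand. XLOC_036368 and XLOC_079937 had 25.1 and 22.3 FPKM in high salt and 21.4 and 20.6 in heat, near the untreated values, but 4.72 and 4.29 in cold.

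The 10 loci higher in drought small RNA as deposited were also higher after centring, as a negative median requires. EPlOSAG00000051181 (chromosome 6, 27674745 to 27674951, plus strand) had 49.7 FPKM (45 to 54.8) untreated and 904 (890 to 918) in drought, a ratio of 18.2 (16.5 to 20.1). Its values in the 5 remaining conditions lay between 54.5 and 109 FPKM. It overlaps EPlOSAG00000051167 on the opposite strand. OS08G0153225 (chromosome 8, 3063051 to 3064289, minus strand, 2 exons) had 0.903 (0.629 to 1.26) and 9.93 (9.27 to 10.6), and OS12G0554300 had 2.70 (2.05 to 3.48) and 14.6 (13.5 to 15.7). OS07G0458025 had 0.246 (0.161 to 0.361) and 1.92 (1.74 to 2.10).

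The remaining higher small RNA loci had ratios between 2.00 and 2.86. XLOC_000076 (chromosome 1, 528696 to 528964, plus strand) had 557 FPKM (543 to 571) and 1250 (1236 to 1265) and overlaps XLOC_005753 on the opposite strand. XLOC_075080 had 125 and 316, and XLOC_029553 had 26.9 and 76.7. XLOC_029553 had 92.7 FPKM in high salt and 83.3 in heat, above its drought value. EPlOSAG00000019999 and EPlOSAG00000019866 had 6.56 and 32.5 untreated and 18.2 and 68.0 in drought. The last of the 10, EPlOSAG00000008516, belongs to the group described next.

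**Figure D5:**
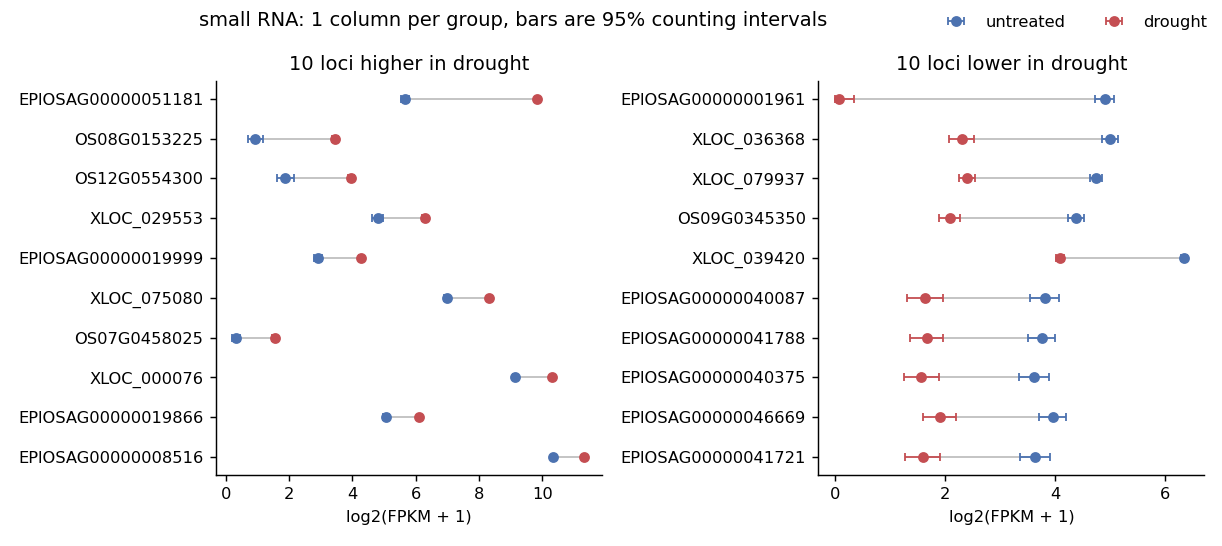
Small RNA of the 10 loci higher and the 10 lower in drought with the largest differences past 2-fold on both scales, as log2(FPKM + 1), with untreated in blue, drought in red and 95% counting intervals as bars. EPlOSAG00000051181 goes from 49.7 to 904 FPKM and EPlOSAG00000001961 from 28.8 to 0.0490.

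A set of 6 EPlOSAG loci of equal length took most of the listed small RNA reads, 68.3% in untreated seedlings and 79.1% in drought. The 5 on chromosome 9, EPlOSAG00000008517 to EPlOSAG00000008521, lie between positions 3625 and 37148 and had one and the same small RNA value, 1009 FPKM untreated and 1894 in drought. EPlOSAG00000008516 on chromosome 2 (28719356 to 28721167, plus strand) had 1284 and 2571. No source used here says how reads that fit several places were counted, so the 6 are not independent. A counting interval, such as that drawn for EPlOSAG00000008516 in the plot of small RNA loci, does not cover how reads were divided among them. Together they took 1.15% of the small RNA library in untreated seedlings and 2.18% in drought. All other listed loci took 0.532% and 0.575%, while most of them had the lower value.

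In long RNA the 6 loci differed among themselves. Their share of listed reads went from 50.3% to 29.5% in poly(A)- RNA and from 41.3% to 50.5% in nuclear RNA. The chromosome 9 loci had 708 to 711 FPKM untreated and 657 to 668 in drought poly(A)- RNA, whereas EPlOSAG00000008516 had 736 and 194. In nuclear RNA they had 470 to 473 and 656 to 667, and EPlOSAG00000008516 had 604 and 897. The chromosome 2 locus thus had the lower poly(A)- value and the higher nuclear and small RNA values in drought.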

How the data were processed

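The authors deposited 2 lists of noncoding loci with FPKM values per library group, and per the file headers each row gives coordinates, exons and the authors' classes. The submitters' processing notes give the build IRGSP-1.0 and list TopHat2 and DESeq2, without a role. Which read counter was used, and how it treated multiply mapped reads, is not given there. In each list 28 columns were used, and 8 columns of leaves and panicles were not used. Transcripts were reduced to 1 row per gene. Lengths are sums over exons of end minus start, and coordinates are as deposited. No identifier matched the RefSeq table.

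Whole reads were recovered from the deposited FPKM: times length, all 78228 of 78228 single-exon values up to 200 reads were multiples of 1 step within 0.05 reads. The commonest smallest value set the step and so the depth, 24.6 M to 80.8 M reads (M, units of 1e6) in long and 39.7 M to 85.8 M in small RNA libraries. Exact 95% Poisson intervals were given for values and exact binomial ones for ratios. For folds, a value of 0 was replaced by a limit of 3 reads in that library. Such a fold leaves out the counting error of the other column, so the end of the ratio interval stands beside it. Reads without molecular identifiers are not independent molecules, and all intervals cover counting error only.

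Loci at 1 FPKM or more in one of the columns were compared on log2(FPKM + 1), which understates changes of low loci, at 2-fold, as deposited and centred on the median. No test was possible with 1 column per group, and none was made. Python 3.11.15, numpy 2.4.6, pandas 2.3.3 and scipy 1.17.1 were used, and the steps were checked on simulated data. Named loci were the 10 largest differences each way (5 for nuclear RNA) past 2-fold on both scales with a ratio interval without 1. To these came loci called alike in 3 long kinds of RNA, the 5 of most FPKM in drought and the 5 largest gaps each way between poly(A)- and poly(A)+ RNA. The comparison, rules and groups of loci were chosen with earlier results of these data known.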

Additional observations from a re-analysis of the deposited data

Results flagged for a closer look

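The 6 loci described here passed 2-fold on both scales in opposite directions in 2 kinds of RNA. The gap between the 2 log2 differences was not tested, and 1 column per group gives no replicate spread. XLOC_029543 (chromosome 12, 13392363 to 13392781, minus strand) had 6.20 FPKM untreated and 16.6 in drought poly(A)+ RNA, but 324 and 128 in poly(A)- RNA and 43.5 and 17.2 in nuclear RNA. Its differences were apart by -2.62 for poly(A)- minus poly(A)+ RNA and by -2.58 for nuclear minus poly(A)+ RNA. OS12G0136500 (chromosome 12, 1772559 to 1774555, minus strand) had 27.5 FPKM (26.7 to 28.3) untreated and 2.42 (2.15 to 2.72) in drought poly(A)+ RNA, and nuclear values of 3.36 (2.87 to 3.92) and 8.47 (7.91 to 9.07), a gap of 4.18. XLOC_042505 had 120 and 18.2 FPKM in poly(A)+ RNA and nuclear values of 0.502 (0.104 to 1.47), which is 3 reads, and 2.15 (1.41 to 3.16), a gap of 3.73.

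XLOC_078921 had 10.5 FPKM (9.10 to 12.2) untreated and no read in drought poly(A)- RNA, and nuclear values of 4.19 (2.66 to 6.29) and 11.2 (9.31 to 13.3), a gap of 4.76, and a listed locus lies on the opposite strand. XLOC_054993 had 1.25 and 0 FPKM in poly(A)- RNA and 0 and 1.12 in nuclear RNA, a gap of 2.25 that rests on 29 and 16 reads. EPlOSAG00000008516 had 736 and 194 FPKM in poly(A)- RNA and 1284 and 2571 in small RNA, a gap of 2.92. How its reads were divided from those of the 5 loci of equal length on chromosome 9 was not tested. Whether it is a copy of ribosomal RNA was not tested either.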

How the results depend on the processing

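Counts are given as higher and lower loci. With a pseudocount of 0.1, poly(A)- RNA had 122 and 144, nuclear RNA 48 and 112, small RNA 883 lower, and 7 and 19 loci were alike in 3 kinds of RNA. The medians became -1.59 in poly(A)+, -0.32 in nuclear and -1.52 in small RNA. Without the level filter as well, counts were 448 and 2675, 437 and 734, 412 and 688, and 64 and 1797 in poly(A)+, poly(A)-, nuclear and small RNA. At 5 FPKM or more, poly(A)+ RNA had 796 lower, poly(A)- RNA 34 and 27, nuclear RNA 5 and 12, and small RNA 186 lower. The medians were then -1.23 in poly(A)+, -1.31 in small and 0.0633 in nuclear RNA, where the sign turned and the cause was not tested. Centring gave 609 and 421, 36 and 19, and 42 and 25 in poly(A)+, nuclear and small RNA, and 8 loci higher in all 3 long kinds. At 4-fold there were 77 and 433, 21 and 22, 1 and 2, and 3 and 14 loci in the 4 kinds, and 0 and 1 alike in 3. Without EPlOSAG loci and others of the length of the chromosome 9 set, small RNA had 6 and 104, since fewer loci entered. Gaps between poly(A)- and poly(A)+ RNA were 329 and 41 as deposited and 3 and 34 at 8-fold. Asking for a ratio interval without 1 changed no count. All 101 differences of the named loci had the same sign with a pseudocount of 0.1, which cannot change a sign. After centring all kept their sign and 98 stayed past 2-fold. Most of them had been chosen for passing 2-fold on both scales, so this is no check of them. No paired analysis was possible because each group has 1 column. Leaving out a library was not possible for the same reason. The recovered depth was lowest in untreated nuclear RNA.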
